A study of Mus musculus with 6 samples.

Results

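The NRF2 targets and antioxidant enzymes examined here were 10 genes, Hmox1, Nqo1, Gclc, Gclm, Txnrd1, Slc7a11, Sod1, Sod2, Cat and Gpx1, listed by name among the 43412 genes of the annotated rows. The rule uses no measured value, but the list was drawn up with earlier results of these data known. They were followed in GC-2spd cells, an immortalized mouse line (strain background C57BL/6J, from testis) that is used as a model of germ cells. The study asked how these cells respond to low oxygen, and the libraries were 3 of normoxic cells kept at 21% O2 and 3 of hypoxia-treated cells kept at 1% O2. The same immortalized line, medium and 5% CO2 were used in both groups, and the sources name no genetic change or drug added to either group. The study's scheme of the hypoxia model gives 48 h at 1% O2, but its account of the transcriptome does not repeat the duration. Poly(A) RNA was sequenced, and expression is given as TPM, the transcripts of a gene scaled to a fixed total of transcripts after correction for transcript length, so that levels of different genes can be compared. All 10 genes were among the 13749 genes with a mean of at least 1 TPM that were tested.

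NRF2, encoded by Nfe2l2, is the transcription factor that switches on genes against oxidative and electrophilic stress. In resting cells KEAP1, acting with CUL3, marks NRF2 for degradation. When KEAP1 is modified by oxidants, NRF2 accumulates, pairs with a small MAF protein and binds the antioxidant response element (ARE) of its targets. The targets supply glutathione and thioredoxin, detoxify quinones and break down heme. Superoxide dismutases, catalase and glutathione peroxidases act directly on superoxide and peroxides and are only in part under NRF2. Hmox1 is known to respond also to BACH1 and to hypoxia-inducible factors, and Slc7a11 also to ATF4, the factor of the amino acid stress response. Developing germ cells are sensitive to oxidative damage, which is why these enzymes are studied in the testis.

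The libraries were compared before the genes were. The bases aligned to genes, calculated from coverage and FPKM, came to 5.747 to 6.614 gigabases in normoxic and 5.797 to 6.722 gigabases in hypoxia-treated libraries. Across genes, the libraries of a group correlated with r between 0.988 and 0.989 and those of different groups between 0.951 and 0.953. All 12 genes of a list of HIF targets (Vegfa, Car9, Egln3 and others) rose in hypoxia-treated cells, with a median log2 fold change of 2.09. Of 9 germ cell markers, 0 reached a mean of 1 TPM, and Sycp1, Stra8, Piwil1, Tnp1 and Acr were listed at 0 in every library, so the germ cell label of the line had no support from these markers. Of 5 mesenchymal markers, Col1a1, Col1a2, Vim and Pdgfrb were expressed and Thy1 was at 0, and their summed level was 3279.6 to 4238.7 TPM in normoxia and 6828.9 to 7048.6 TPM in hypoxia. These markers did not move together, since Vim (1601.3 ± 507 and 4053.3 ± 102 TPM) and Col1a1 (1161.2 ± 53.8 and 1719.6 ± 48 TPM) were higher in hypoxia without overlap, Col1a2 overlapped (1123 ± 25.8 and 1138.2 ± 189 TPM), and Pdgfrb was lower (6.62 ± 0.207 and 1.45 ± 0.185 TPM). Sertoli cell markers summed to 9.48 to 11.1 TPM and 15.9 to 18.1 TPM (2 of 5 expressed, Sox9 and Rhox5), Leydig cell markers to 3.21 to 5.7 TPM and 7.14 to 10.5 TPM (2 of 4, Star and Insl3, with Hsd3b1 at 0), and macrophage markers to 7.2 to 8.11 TPM and 10.5 to 11.5 TPM (2 of 4, Cd68 and Csf1r, with Ptprc and Adgre1 at 0). The higher Sertoli sum came mostly from Sox9 (6.41 ± 0.533 and 13.3 ± 0.395 TPM), with Rhox5 at 3.36 ± 0.433 and 3.02 ± 0.813 TPM, and the higher Leydig sum from Insl3 (2.65 ± 1.39 and 7.36 ± 1.57 TPM), with Star at 1.37 ± 0.237 and 1.1 ± 0.296 TPM. Endothelial markers were under 1 TPM on average (0 of 2, Cdh5 at 0), summing to 0.678 to 1.8 TPM in normoxia and 0.142 to 0.976 TPM in hypoxia. The part of these marker shifts in the results below was not tested.

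Promoter sequence was examined for the genes that have a window in the RefSeq table used here (GRCm38.p6, the assembly of mm10), which were 8 of the 10. Hmox1 and Gclc have no entry in it. A window held 250 bases before and 50 bases after the start of transcription, and it was searched on both strands for the ARE core TGACNNNGC, the ATF4-type element TGATGNAA, the hypoxia response element core ACGTG and the AP-1 site TGANTCA. The sequences shown are those of the 4 genes whose window held an ARE core or an ATF4-type element, since these are the motifs of the regulators named above. Only the 250 bases before the start are printed, 5′ to 3′ on the strand of the gene, and capitals mark those 2 motifs. The windows lie at chr3:50443614-50443863 (minus strand, Slc7a11), chr3:122245307-122245556 (plus strand, Gclm), chr10:82858956-82859205 (plus strand, Txnrd1, the window of the start given in the files) and chr16:90220512-90220761 (plus strand, Sod1).
Slc7a11: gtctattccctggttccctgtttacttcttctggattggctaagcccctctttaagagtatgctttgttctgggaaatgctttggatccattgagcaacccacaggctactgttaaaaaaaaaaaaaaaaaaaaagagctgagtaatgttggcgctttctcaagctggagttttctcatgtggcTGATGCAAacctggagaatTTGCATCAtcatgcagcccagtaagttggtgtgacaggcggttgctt
Gclm: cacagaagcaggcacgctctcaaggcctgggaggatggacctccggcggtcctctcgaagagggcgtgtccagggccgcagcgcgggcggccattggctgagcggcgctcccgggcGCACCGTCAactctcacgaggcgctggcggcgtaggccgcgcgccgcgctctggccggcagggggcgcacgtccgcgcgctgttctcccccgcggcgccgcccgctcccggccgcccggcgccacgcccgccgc
Txnrd1: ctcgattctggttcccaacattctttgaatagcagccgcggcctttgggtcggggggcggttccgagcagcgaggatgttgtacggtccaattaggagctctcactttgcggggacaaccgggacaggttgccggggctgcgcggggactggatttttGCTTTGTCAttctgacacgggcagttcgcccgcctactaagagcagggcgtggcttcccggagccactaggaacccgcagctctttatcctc
Sod1: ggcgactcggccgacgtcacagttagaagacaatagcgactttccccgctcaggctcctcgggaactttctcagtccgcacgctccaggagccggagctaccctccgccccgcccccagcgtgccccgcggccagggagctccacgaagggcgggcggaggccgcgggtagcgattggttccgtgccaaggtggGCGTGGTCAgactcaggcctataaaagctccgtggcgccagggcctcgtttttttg

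In these windows the ARE core was found in 3 of 8 genes, in each case on the reverse strand. It began 134 bases before the start in Gclm (GCACCGTCA), 92 bases before it in Txnrd1 (GCTTTGTCA) and 56 bases before it in Sod1 (GCGTGGTCA). The windows of other Txnrd1 starts, at 82833951 and 82860341, held none of the 4 motifs. The core occurred in 12.4% of 32851 promoter windows of the same length. The Slc7a11 window held 2 ATF4-type elements in opposite orientation, TGATGCAA at 66 bases and TTGCATCA at 47 bases before the start, and such an element occurred in 3.97% of all windows. The hypoxia core was found in Gclm (67 bases before the start) and Gpx1 (183 bases before the start) and occurred in 19.6% of all windows. Distances are from the RefSeq start. For Gpx1 that start lies 177 bases, and for Sod1 20 bases, downstream of the gene start given in the files. The AP-1 site was found in 0 of the 8 windows and in 7.81% of all windows. None of the 4 motifs was found in the windows of Nqo1, Sod2 and Cat. These are matches of letters in a short window, and the files hold no measurement of binding.

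Of the 10 genes, 7 were lower and 3 were higher in hypoxia-treated cells at an adjusted p under 0.05 (limma on log2(TPM + 1), adjusted over all 13749 genes). Nqo1, Txnrd1, Slc7a11, Gclm, Gclc, Gpx1 and Sod2 were lower, and Hmox1, Cat and Sod1 were higher, although the call and the direction of Sod1 depended on the scaling. Among all genes tested, 36.1% were called lower and 17.9% higher, and 54% were called in either direction. With such a large share called, the counts are read with the size of each change. The fall was at least 2-fold on the log2(TPM + 1) scale in 3 of the 10 genes (Slc7a11, Nqo1 and Txnrd1) and in 5.33% of all genes. The groups did not overlap for any of the 10 genes, as was the case for 62.4% of all genes. All hypoxia-treated libraries lay below all normoxic libraries for 7 of the 10 genes, against 41% of all genes, and above them for 3, against 21.4% of all genes. The median log2 fold change of the 10 genes was −0.69, and that of all genes was −0.13. In these bulk libraries, fewer cells that express a gene and less RNA of it per cell cannot be told apart.

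Because more genes fell than rose in TPM, the libraries were also rescaled. After median-ratio scaling the median of all genes was 0.0024, with 3607 genes called higher and 3613 lower, against 2463 and 4967 in TPM as deposited. After quantile normalization the median was 0.0025, with 3575 called higher and 3639 lower. The 10 genes then gave 3 higher and 7 lower under median-ratio scaling (median −0.55) and 2 higher and 7 lower under quantile normalization (median −0.60). Sod1 was the gene whose call and direction differed.

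**Figure D1:**
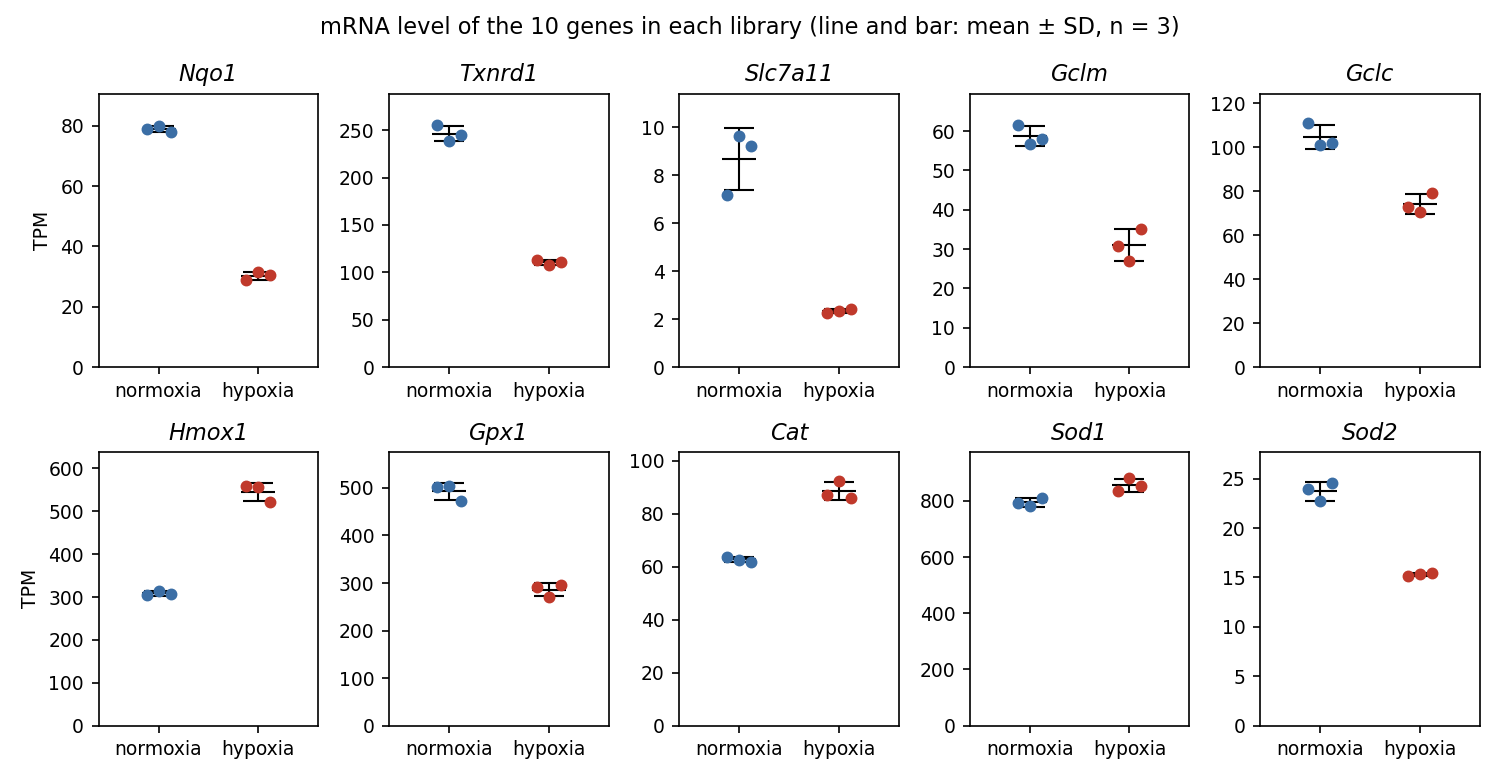
TPM of each of the 10 genes (vertical axis, from 0, a separate scale for each gene) in the 3 normoxic (blue) and 3 hypoxia-treated (red) libraries, with points for libraries and a line and bar for the mean ± SD. In every panel all hypoxia-treated points lie on one side of all normoxic points, from Slc7a11 at 7.19 to 9.63 TPM against 2.27 to 2.43 TPM to Sod1 at 780 to 809 TPM against 834 to 880 TPM.

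Nqo1 encodes NAD(P)H quinone dehydrogenase 1, which reduces quinones to hydroquinones and is the classical reporter of NRF2 activity. Nqo1 (ENSMUSG00000003849, mm10 chromosome 8, 107388225 to 107403206, minus strand) was at 78.8, 79.9 and 78.1 TPM in the normoxic libraries and at 28.9, 31.5 and 30.7 TPM in the hypoxia-treated libraries. The mean fell from 78.9 ± 0.895 to 30.4 ± 1.33 TPM (SD, n = 3 per group), a 2.6-fold lower level. The log2 fold change of TPM + 1 was −1.35 (SE 0.05, adjusted p = 5.37e-06 by limma), and it was −1.21 after median-ratio scaling and −1.23 after quantile normalization. The difference was many times the spread within either group.

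Txnrd1 encodes the cytosolic thioredoxin reductase, a selenoprotein that keeps thioredoxin reduced with electrons from NADPH. Txnrd1 (ENSMUSG00000020250, chromosome 10, 82859206 to 82897724, plus strand) was at 255, 239 and 245 TPM in normoxia and at 113, 108 and 111 TPM in hypoxia. It fell 2.23-fold, from 247 ± 8.46 to 111 ± 2.17 TPM (SD, n = 3), with a log2 fold change of −1.15 (SE 0.04, adjusted p = 4.68e-06 by limma). The value was −1.0 after median-ratio scaling and −1.13 after quantile normalization. The lowest normoxic library held more than the highest hypoxia-treated library by a wide margin, and the promoter printed above for the start in the files is that with the ARE core.

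Slc7a11 encodes xCT, the light chain of the antiporter that brings cystine into the cell for glutathione synthesis. It had the lowest level of the 10 genes, at percentile 21.9 of the tested genes by mean TPM. Slc7a11 (ENSMUSG00000027737, chromosome 3, 49892526 to 50443614, minus strand) was at 7.19, 9.63 and 9.2 TPM in normoxia and at 2.27, 2.32 and 2.43 TPM in hypoxia. The mean was 8.67 ± 1.3 TPM against 2.34 ± 0.0841 TPM (SD, n = 3), a 3.7-fold fall and the largest ratio among the 10 genes. The read depth behind it was also the thinnest, a mean coverage of 2.6 to 13.9 reads per base in single libraries, against 1851.6 to 2306.6 for Sod1. The log2 fold change was −1.52 (SE 0.12, adjusted p = 1.07e-04 by limma), and at this level its size moved with the pseudocount, from −1.83 with 0.1 TPM to −0.89 with 5 TPM. It fell under every setting tried.

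Gclm and Gclc encode the modifier and the catalytic subunit of glutamate-cysteine ligase, the rate-limiting enzyme of glutathione synthesis. Gclm (ENSMUSG00000028124, chromosome 3, 122245557 to 122269984, plus strand) was at 61.5, 56.6 and 57.9 TPM in normoxia and at 30.8, 27.1 and 35.2 TPM in hypoxia. It fell 1.89-fold, from 58.7 ± 2.55 to 31.0 ± 4.07 TPM (SD, n = 3), with a log2 fold change of −0.91 (SE 0.1, adjusted p = 3.20e-04 by limma). Its exons share 296 bases with Gm17494 on the opposite strand (8.21 TPM in normoxia and 8.11 TPM in hypoxia) and 244 bases with Gm6061 on its own strand (3.63 and 5.28 TPM). Whether the counting used strand is not stated, so reads of Gclm and Gm17494 may not be told apart. Both neighbours were below Gclm in each group, but by less in hypoxia, where Gclm was at 31.0 TPM. The level of Gclm in hypoxia, and its ratio to Gclc, carry this uncertainty. Exons of the other 9 genes overlap no other annotated gene.

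Gclc (ENSMUSG00000032350, chromosome 9, 77754535 to 77794485, plus strand) was at 111, 101 and 102 TPM in normoxia and at 72.9, 70.5 and 79.3 TPM in hypoxia. It fell 1.41-fold, from 104 ± 5.32 to 74.2 ± 4.57 TPM (SD, n = 3), the smallest fall among the 7 genes. The log2 fold change was −0.49 (SE 0.06, adjusted p = 7.08e-04 by limma), and −0.34 after median-ratio scaling. The groups did not overlap for either subunit, and the ratio of both within each library is given below.

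Hmox1, heme oxygenase 1, opens the heme ring to biliverdin, carbon monoxide and iron, and it moved in the opposite direction to the other NRF2 targets. Hmox1 (ENSMUSG00000005413, chromosome 8, 75093591 to 75100596, plus strand) was at 304, 315 and 308 TPM in normoxia and at 559, 557 and 521 TPM in hypoxia. It rose 1.77-fold, from 309 ± 5.44 to 545 ± 21.1 TPM (SD, n = 3), with a log2 fold change of 0.82 (SE 0.04, adjusted p = 1.55e-05 by limma). The value was 0.96 after median-ratio scaling and 0.76 after quantile normalization. Every hypoxia-treated library was above every normoxic library, and of the 6 NRF2 targets Hmox1 was the only gene called higher.

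Gpx1, glutathione peroxidase 1, is a selenoprotein of cytosol and mitochondria that reduces hydrogen peroxide with glutathione. Gpx1 (ENSMUSG00000063856, chromosome 9, 108338903 to 108340343, plus strand) was at 503, 504 and 472 TPM in normoxia and at 291, 270 and 296 TPM in hypoxia. It fell 1.73-fold, from 493 ± 18.1 to 286 ± 13.4 TPM (SD, n = 3), with a log2 fold change of −0.79 (SE 0.05, adjusted p = 3.58e-05 by limma). Cat, the peroxisomal catalase that splits hydrogen peroxide without a cofactor such as glutathione, changed in the other direction. Cat (ENSMUSG00000027187, chromosome 2, 103453849 to 103485160, minus strand) was at 63.8, 62.6 and 61.8 TPM in normoxia and at 87.0, 92.3 and 85.9 TPM in hypoxia. It rose 1.41-fold, from 62.7 ± 0.975 to 88.4 ± 3.38 TPM (SD, n = 3), with a log2 fold change of 0.49 (SE 0.05, adjusted p = 2.01e-04 by limma). The mRNAs of these enzymes, which both remove hydrogen peroxide, thus moved apart, and the directions held under both rescalings (−0.64 and −0.83 for Gpx1, 0.63 and 0.57 for Cat).

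Sod2, the manganese superoxide dismutase of the mitochondrial matrix, fell. Sod2 (ENSMUSG00000006818, chromosome 17, 13007839 to 13018119, plus strand) was at 23.9, 22.7 and 24.6 TPM in normoxia and at 15.1, 15.3 and 15.4 TPM in hypoxia. The mean was 23.7 ± 0.956 TPM against 15.3 ± 0.141 TPM (SD, n = 3), a 1.55-fold lower level, with a log2 fold change of −0.6 (SE 0.06, adjusted p = 2.31e-04 by limma). It was lower under both rescalings as well (−0.46 and −0.42).

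Sod1, the copper and zinc superoxide dismutase of the cytosol, had the highest level of the 10 genes and the smallest change. Sod1 (ENSMUSG00000022982, chromosome 16, 90220742 to 90226322, plus strand) was at 793, 780 and 809 TPM in normoxia and at 834, 880 and 852 TPM in hypoxia. The mean was 794 ± 14.5 TPM against 855 ± 23.1 TPM (SD, n = 3), a ratio of 1.08, with a log2 fold change of 0.11 (SE 0.03, adjusted p = 0.0368 by limma). The log2 fold change was 0.25 after median-ratio scaling (adjusted p = 0.00102) and −0.08 after quantile normalization (adjusted p = 0.155), so that no direction is stated for Sod1. By limma, the adjusted p was 0.0867, 0.106 and 0.0509 without normoxia replicate 1, 2 and 3, and 0.0349, 0.107 and 0.0692 without hypoxia replicate 1, 2 and 3. The other 9 genes kept their direction and call under all 17 other settings.

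**Figure D2:**
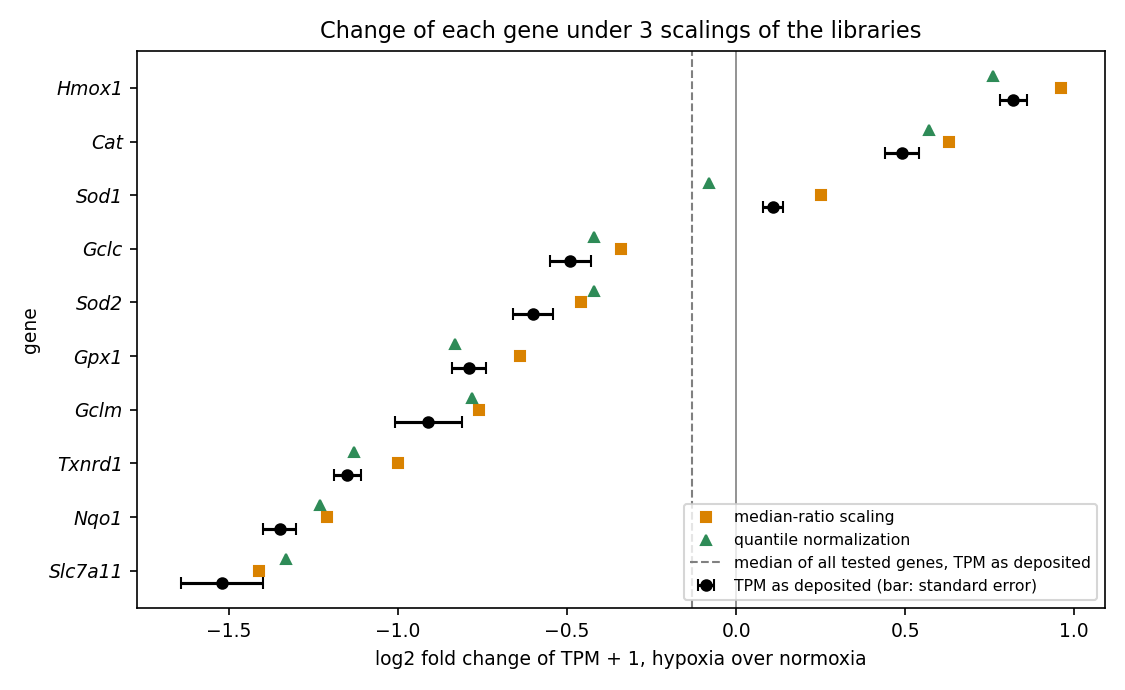
Log2 fold change of TPM + 1 of the 10 genes (horizontal axis, hypoxia over normoxia, one row per gene) from TPM as deposited (black, bar for the standard error), after median-ratio scaling (orange) and after quantile normalization (green), with the median of all tested genes at −0.13 as a dashed line. The 3 values lie on one side of 0 for every gene except Sod1, where they are 0.11, 0.25 and −0.08.

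The order of the levels changed with the treatment. In normoxia the order by mean TPM was Sod1, Gpx1, Hmox1, Txnrd1, Gclc, Nqo1, Cat, Gclm, Sod2 and Slc7a11. No neighbours overlapped there, although the highest Gclm library (61.5 TPM) was close to the lowest Cat library (61.8 TPM). In hypoxia Hmox1 (521 to 559 TPM) stood above Gpx1 (270 to 296 TPM), and Cat (85.9 to 92.3 TPM) stood above Gclc (70.5 to 79.3 TPM), Gclm and Nqo1. Gclm (27.1 to 35.2 TPM) and Nqo1 (28.9 to 31.5 TPM) overlapped in hypoxia and did not differ beyond their spread.

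Ratios of 2 genes within a library do not change when a library is scaled by a single factor, and 6 pairs were compared by function. Quantile normalization is no such factor and changes ratios, and they are given here for TPM as deposited. For each pair the groups did not overlap, and the exact permutation test over the 6 libraries (2-sided) gave p = 0.1, the smallest value that 3 against 3 libraries allow, which is also the Benjamini-Hochberg adjusted value over the 6 pairs. The ratio of Gclm to Gclc was 0.562 ± 0.00728 in normoxia and 0.417 ± 0.0303 in hypoxia (SD, n = 3), with single libraries at 0.556, 0.559 and 0.57 against 0.423, 0.384 and 0.443. The mRNA of the modifier subunit was therefore lower relative to that of the catalytic subunit in all 3 hypoxia-treated libraries. The ratio of Slc7a11 to Slc3a2, the heavy chain that carries xCT to the membrane, was 0.0659 ± 0.00972 against 0.0246 ± 0.00119, a log2 difference of −1.41. Slc3a2 itself fell from 132 ± 8.0 to 95.4 ± 4.56 TPM (log2 fold change −0.46, adjusted p = 7.93e-04 by limma), a call that was lost when the loci assembled by StringTie replaced the annotated gene (−0.44, adjusted p = 0.212).

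The ratio of Gpx1 to Cat was 7.86 ± 0.205 in normoxia and 3.24 ± 0.27 in hypoxia, a log2 difference of −1.28 that stood between 2 genes that moved apart. The ratio of Sod2 to Sod1 was 0.0299 ± 0.000678 against 0.0179 ± 0.000378, a log2 difference of −0.74. After quantile normalization the log2 fold changes were −0.42 for Sod2 and −0.08 for Sod1, which lie closer together. In TPM as deposited the mRNA of the mitochondrial dismutase was lower relative to that of the cytosolic dismutase in each hypoxia-treated library. The ratio of Hmox1 to Hmox2, the constitutive heme oxygenase, was 5.15 ± 0.132 against 9.85 ± 1.42, with hypoxia-treated libraries at 11, 10.2 and 8.27. Hmox2 was at 60 ± 2.57 and 56.0 ± 6.35 TPM and did not pass the test (log2 fold change −0.1, adjusted p = 0.348 by limma, 0.04 after median-ratio scaling). The ratio of Txnrd1 to Txnrd2, the mitochondrial thioredoxin reductase, was 16.6 ± 1.62 against 11.9 ± 1.93, and Txnrd2 fell from 15.0 ± 1.55 to 9.47 ± 1.85 TPM (log2 fold change −0.62, adjusted p = 0.00889 by limma, and −1.01 with adjusted p = 0.0501 for the assembled loci). Exons of Hmox2 overlap those of Cdip1 on the opposite strand, and reads of such a pair cannot be told apart without strand. The level of Txnrd2 is also uncertain, since the counting is not stated to use strand.

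**Figure D3:**
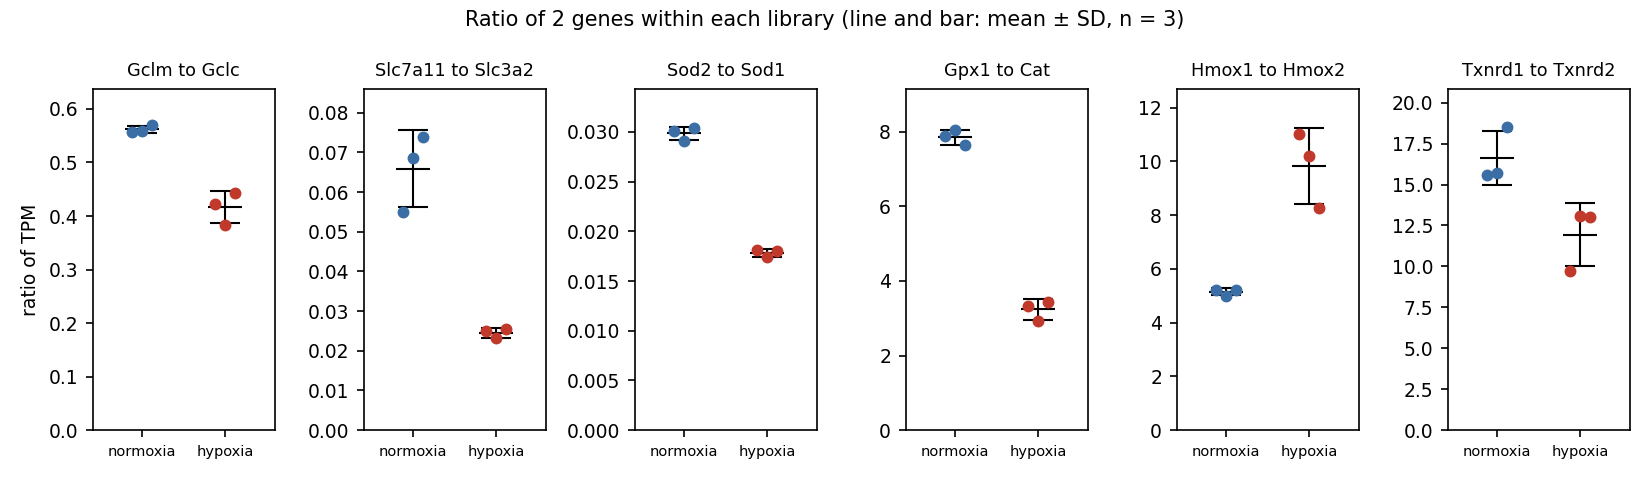
Ratio of the TPM of 2 genes within each library (vertical axis, from 0, a separate scale for each pair) in normoxic (blue) and hypoxia-treated (red) libraries, with a line and bar for the mean ± SD of 3 libraries. Only the ratio of Hmox1 to Hmox2 is higher in hypoxia (8.27 to 11 against 5.0 to 5.23), and the other 5 ratios are lower in all hypoxia-treated libraries.

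The mRNAs of NRF2 and of the proteins that control it were described next, as a list of 13 genes. Of these, 3 rose, 4 fell and 6 did not pass the test, with a median log2 fold change of −0.13. The median of all genes was the same, and the counts lie near the shares of all genes, 36.1% called lower and 17.9% called higher. After median-ratio scaling 4 were called higher and 2 lower (median 0.01), and after quantile normalization 4 higher and 4 lower, so that the split of directions in this list depended on the scaling. Nfe2l2, which encodes NRF2, was at 68.1, 84.1 and 90.3 TPM in normoxia and at 44.4, 53.1 and 51.1 TPM in hypoxia. It fell from 80.8 ± 11.5 to 49.5 ± 4.58 TPM (log2 fold change −0.69, SE 0.12, adjusted p = 0.00252 by limma), and the fall held under both rescalings (−0.55 and −0.60). Of the proteins that degrade NRF2, Keap1 was at 35.0 ± 1.89 and 31.3 ± 2.47 TPM (−0.16, adjusted p = 0.122), Cul3 at a log2 fold change of −0.08 (adjusted p = 0.276, 0.06 after median-ratio scaling) and the ring protein gene Rbx1 at 0.13 (adjusted p = 0.0702). Rbx1 was called higher after median-ratio scaling (0.28, adjusted p = 0.00343), after quantile normalization (0.18, adjusted p = 0.0207) and without hypoxia replicate 2 (0.18, adjusted p = 0.0224).

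Among the small MAF proteins, which pair with NRF2 and also with BACH1, Maff showed the largest change of the list. Maff was at 47.6, 49.5 and 53.5 TPM in normoxia and at 139, 150 and 139 TPM in hypoxia, a rise from 50.2 ± 2.98 to 143 ± 6.35 TPM (log2 fold change 1.49, SE 0.06, adjusted p = 6.56e-06 by limma). Mafg also rose, from 60.1 ± 2.43 to 82.0 ± 3.78 TPM (0.44, adjusted p = 6.33e-04), and Mafk fell from 24.1 ± 0.605 to 15.4 ± 1.66 TPM (−0.62, adjusted p = 9.57e-04). The 3 paralogs thus did not move together, and Mafg shares exon bases with Sirt7 on the same strand. Bach1, the heme-regulated repressor that competes for the same elements, rose from 16.4 ± 1.05 to 20.4 ± 0.551 TPM (0.31, adjusted p = 0.0086). Its relative Bach2 was at 1.77, 1.61 and 1.86 TPM in normoxia and at 5.05, 5.11 and 1.25 TPM in hypoxia, a difference that did not pass the test (0.67, adjusted p = 0.179). Hypoxia replicate 3 was the low library, and without it the value was 1.15 (adjusted p = 0.0011).

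Nfe2l1 and Nfe2l3 encode the factors related to NRF2. Nfe2l1 was at 265 ± 23.3 and 223 ± 12.4 TPM (log2 fold change −0.25, adjusted p = 0.028 by limma), and the call was lost after median-ratio scaling (−0.1, adjusted p = 0.279). Its adjusted p was 0.0816 and 0.0767 without normoxia replicate 1 and 3, and 0.0852 and 0.0665 without hypoxia replicate 2 and 3. Nfe2l3 was near the lower limit of the test, at 1.64 ± 0.519 and 0.683 ± 0.282 TPM (−0.64, adjusted p = 0.0403), and missed the threshold without normoxia replicate 3 (0.093), hypoxia replicate 1 (0.111) or hypoxia replicate 2 (0.091). Neither call was therefore firm. Sqstm1, whose protein p62 draws KEAP1 into autophagy, was at 517 ± 36.5 and 459 ± 29.8 TPM (−0.17, adjusted p = 0.0716), and at −0.23 (adjusted p = 0.0329) without normoxia replicate 1. Sqstm1 was also called lower with FPKM (adjusted p = 0.0289), nuclear protein-coding genes rescaled (0.0373), quantile normalization (0.0408) and a replicate block (0.0163). After median-ratio scaling Sqstm1 was at −0.03 (adjusted p = 0.78). Dpp3, another partner of KEAP1, was at a log2 fold change of −0.13 (adjusted p = 0.0548), and at −0.16 (adjusted p = 0.0459) without hypoxia replicate 3. Dpp3 was also called lower with FPKM (−0.18, adjusted p = 0.0113) and nuclear protein-coding genes rescaled (−0.16, adjusted p = 0.0163). After median-ratio scaling Dpp3 was at 0.01 (adjusted p = 0.872).

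The other genes of the redox pathways were taken from fixed lists, 150 genes without the 10 genes described above, of which 129 were tested. Of these, 73 were called lower (56.6%, against 36.1% of all genes), 18 were called higher (14%, against 17.9% of all genes) and 38 did not pass the test, with a median log2 fold change of −0.32. After median-ratio scaling 59 were lower (45.7%, against 26.3% of all genes) and 22 higher (17.1%, against 26.3%), with a median of −0.19. After quantile normalization 65 were lower and 21 higher, with a median of −0.24. The share called lower was above that of all genes under each of these scalings. Exons of Keap1, Sqstm1, Mafk, Bach2, Pon2, Sephs2, Txnl1, Mt2 and Me3 overlap a gene on the opposite strand. Those of Ugdh and Ephx1 overlap a gene on the same strand. Reads of such pairs may not be told apart, so the values of these genes are uncertain. The counts given below for single lists include the 10 genes where they belong to a list. Each is to be read against the shares of all genes, 36.1% lower and 17.9% higher in TPM as deposited. After median-ratio scaling that share was 26.3% in each direction, and after quantile normalization it was 26.5% lower and 26% higher.

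**Figure D4:**
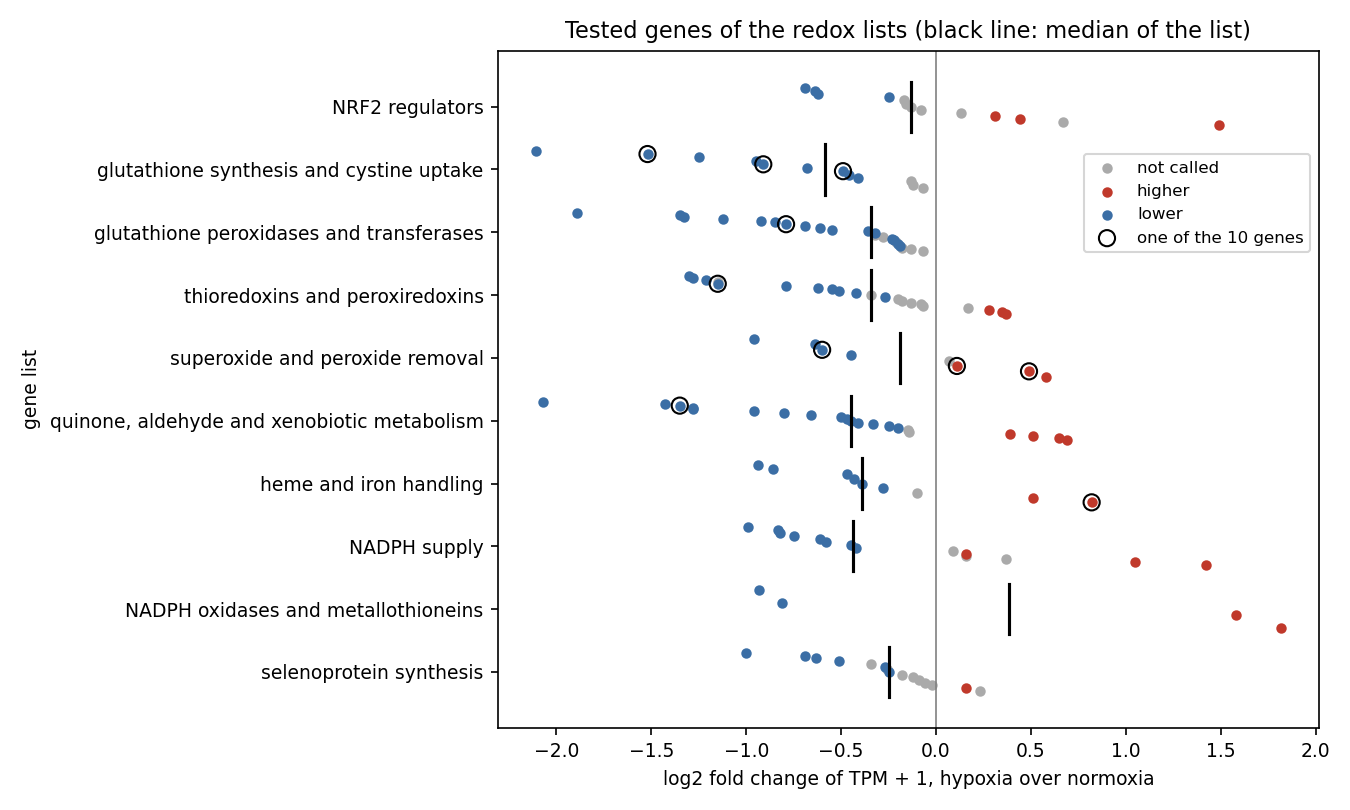
Log2 fold change of TPM + 1 (horizontal axis, hypoxia over normoxia) of every tested gene of 10 lists (one row per list), in red where called higher, blue where called lower and grey where not called, with a black line at the median of each list and a ring around the 10 genes named at the start. The medians lie between −0.59 for glutathione synthesis and −0.13 for NRF2 regulators, apart from the list of NADPH oxidases and metallothioneins at 0.38.

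In glutathione synthesis and cystine uptake, 9 of 12 tested genes fell and 0 rose (median −0.59, and −0.47 after median-ratio scaling). Beside Slc7a11, Gclm and Gclc, the list held Chac1, which encodes an enzyme that degrades glutathione and fell from 77.1 ± 2.76 to 17.1 ± 1.28 TPM (log2 fold change −2.11, adjusted p = 3.03e-06 by limma). Cth, the last enzyme of cysteine synthesis from methionine, fell from 22 ± 0.628 to 10.9 ± 1.02 TPM (−0.95, adjusted p = 1.21e-04). The fall thus covered genes of glutathione synthesis and a gene of its breakdown. Of the glutathione peroxidases and transferases, 16 of 22 tested genes fell and 0 rose (median −0.34), and 11 fell after median-ratio scaling. Beside Gpx1, Gsta4 fell from 118 ± 2.72 to 46.5 ± 3.64 TPM (−1.33, adjusted p = 1.39e-05) and Gsto1 from 286 ± 8.01 to 178 ± 6.71 TPM (−0.69, adjusted p = 3.96e-05). Transferases of this kind join glutathione to electrophiles, and members of such families share similar sequence, so that reads may be split between them.

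Among thioredoxins and peroxiredoxins, 10 of 21 tested genes fell, 3 rose and 8 did not pass the test (median −0.34). The shares of all genes were 36.1% called lower and 17.9% called higher. Prdx3, the mitochondrial peroxiredoxin, fell from 138 ± 4.44 to 56.5 ± 1.39 TPM (log2 fold change −1.28, adjusted p = 4.26e-06 by limma), and Sesn2, a stress-induced sestrin, from 21.3 ± 0.946 to 8.06 ± 0.682 TPM (−1.3, adjusted p = 3.63e-05). Both values were larger in size than that of Txnrd1 in the same list, a difference that was not tested. Prdx5 rose from 165 ± 6.67 to 210 ± 5.3 TPM (0.35, adjusted p = 7.35e-04), but its exons overlap Trmt112 on the opposite strand. Txnl1, a thioredoxin-like gene of the proteasome, rose with a log2 fold change of 0.28 (adjusted p = 0.00153). Msra, a methionine sulfoxide reductase, was called higher (0.37, adjusted p = 0.0267) but missed the threshold when any single library other than hypoxia replicate 1 was left out. The adjusted p was then 0.0583, 0.0645 and 0.0708 without normoxia replicate 1, 2 and 3, and 0.0773 and 0.0755 without hypoxia replicate 2 and 3.

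In the list of superoxide and peroxide removal, to which Sod1, Sod2 and Cat belong, 4 of 8 genes were called lower and 3 higher (median −0.19), with 2 higher after quantile normalization, where Sod1 was not called. Ccs, the copper chaperone that loads SOD1, fell from 32.8 ± 2.14 to 20.6 ± 1.79 TPM (log2 fold change −0.64, adjusted p = 7.36e-04 by limma), while the mRNA of its client Sod1 showed no such fall. Pon2, a lactonase, fell from 43.0 ± 3.56 to 31.2 ± 2.97 TPM (−0.45, adjusted p = 0.00535), a call lost with the assembled loci (−0.72, adjusted p = 0.0804). Oxr1 was at 50 ± 11.8 and 74.4 ± 10.7 TPM (0.58, adjusted p = 0.0278). The groups overlapped for Oxr1, and its adjusted p was 0.0837 and 0.0804 without normoxia replicate 1 and 2, and 0.0848 and 0.0728 without hypoxia replicate 2 and 3.

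In quinone, aldehyde and xenobiotic metabolism, the list of Nqo1, 15 of 21 tested genes fell and 4 rose (median −0.45), with 10 lower and 4 higher after median-ratio scaling. Cbr3, a carbonyl reductase, fell from 31.7 ± 1.19 to 11.2 ± 1.25 TPM (log2 fold change −1.43, adjusted p = 3.66e-05 by limma), and Akr1b3, an aldose reductase, from 105 ± 1.39 to 43.0 ± 0.416 TPM (−1.28, adjusted p = 2.92e-06). Nqo1 itself, at −1.35, lay between them. The call for Cbr3 was lost with the assembled loci (−1.16, adjusted p = 0.392). The rises were those of the exporter gene Abcc1, from 72.0 ± 2.23 to 117 ± 8.62 TPM (0.69, adjusted p = 1.70e-04), of Ugdh, which makes UDP-glucuronate, from 139 ± 3.17 to 219 ± 2.75 TPM (0.65, adjusted p = 2.52e-05), of the cytochrome P450 reductase gene Por, from 107 ± 1.56 to 141 ± 10.6 TPM (0.39, adjusted p = 0.00161), and of the epoxide hydrolase gene Ephx1 (0.51, adjusted p = 0.00216), which was named after its values were seen.

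In heme and iron handling, the list of Hmox1, 6 of 9 tested genes fell and 2 rose (median −0.39). Beside Hmox1 the rise was that of Ftl1, the ferritin light chain, from 3190.8 ± 57.7 to 4554 ± 509 TPM (log2 fold change 0.51, adjusted p = 0.00137 by limma). This value is uncertain, because Ftl1 has near-identical copies in the genome and shares exon bases with other annotated genes, and the call was lost with the assembled loci (0.2, adjusted p = 0.53). Fth1, the ferritin heavy chain, fell from 3350.1 ± 108 to 2550.6 ± 25.7 TPM (−0.39, adjusted p = 1.24e-04). Slc40a1, the iron exporter ferroportin, fell from 31.0 ± 0.736 to 15.7 ± 0.598 TPM (−0.94, adjusted p = 3.52e-05). Fech, the last enzyme of heme synthesis, fell from 64.1 ± 0.913 to 45.9 ± 0.226 TPM (−0.47, adjusted p = 1.54e-04).

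In NADPH supply, which feeds both the glutathione and the thioredoxin system, 8 of 14 tested genes fell and 3 rose (median −0.44), and 8 fell and 5 rose after median-ratio scaling. Pgd and Taldo1 of the pentose phosphate pathway fell from 220 ± 10.3 to 111 ± 8.11 TPM (log2 fold change −0.99, adjusted p = 4.35e-05 by limma) and from 464 ± 3.37 to 311 ± 3.79 TPM (−0.58, adjusted p = 2.19e-05). Idh1, the cytosolic isocitrate dehydrogenase, fell from 180 ± 6.29 to 101 ± 0.224 TPM (−0.82, adjusted p = 1.61e-05). Me2 and Nadk2, both of mitochondria, rose, from 53.2 ± 1.73 to 144 ± 2.73 TPM (1.42, adjusted p = 2.67e-06) and from 46.5 ± 8.87 to 96.7 ± 8.1 TPM (1.05, adjusted p = 6.64e-04). A place in the list does not show that an enzyme yields NADPH in these cells, which was not measured. Mthfd2, Idh2 and Nnt, also of mitochondria, fell, with log2 fold changes of −0.75, −0.42 and −0.45 (adjusted p = 1.45e-04, 7.53e-04 and 0.00319 by limma). Me3 was at 3.62 ± 0.297 and 4.99 ± 0.922 TPM and was not called (0.37, adjusted p = 0.0575 by limma). It was called higher after median-ratio scaling (0.48, adjusted p = 0.0183) and quantile normalization (0.56, adjusted p = 0.0107). Exons of Me3 share 391 bases with A230065N10Rik on the opposite strand, which was at 0.884 TPM in normoxia and 2.25 TPM in hypoxia. Reads of the 2 genes may not be told apart, so the rise of Me3 is uncertain. Mthfd2, Idh2, Nnt and Me3 were named after their values were seen. Tkt was at 184 ± 7.46 and 206 ± 11.1 TPM (0.16, adjusted p = 0.0428), and its adjusted p was 0.126, 0.0515 and 0.0804 without normoxia replicate 1, 2 and 3, and 0.0657 and 0.102 without hypoxia replicate 1 and 3.

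Of 12 NADPH oxidase and metallothionein genes, 4 reached the level for testing, of which 2 rose and 2 fell. Mt1 and Mt2, which bind zinc and other metals, rose from 266 ± 11.5 to 944 ± 58.1 TPM (log2 fold change 1.82, adjusted p = 2.54e-06 by limma) and from 123 ± 11.4 to 368 ± 24.3 TPM (1.58, adjusted p = 1.65e-05). Their paralog Mt3 fell from 2.09 ± 0.495 to 0.615 ± 0.12 TPM (−0.93, adjusted p = 0.00391), and Cyba, the membrane subunit of the NADPH oxidases, fell from 13.8 ± 1.27 to 7.43 ± 0.2 TPM (−0.81, adjusted p = 3.09e-04). Mt1 and Mt2 thus shared a direction that Mt3 did not. Mt3 was near the lower limit of the test, at percentile 3.9 of the tested genes by mean TPM.

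The selenoprotein list was included because Gpx1 and Txnrd1 need selenocysteine. Of 15 genes, 6 fell, 1 rose and 8 did not pass the test (median −0.25), counts to be read against 36.1% called lower and 17.9% called higher among all genes, and 4 fell and 1 rose after median-ratio scaling. Sephs2, which makes the selenium donor, fell from 55.0 ± 3.79 to 33.7 ± 1.43 TPM (log2 fold change −0.69, adjusted p = 2.16e-04 by limma), and Sephs1 from 46.4 ± 2.54 to 29.7 ± 3.31 TPM (−0.63, adjusted p = 0.00118). Selenot was at 129 ± 4.44 and 106 ± 2.57 TPM (−0.27, adjusted p = 0.00207), a call that was lost after median-ratio scaling (−0.13, adjusted p = 0.064). Selenok was at 93.1 ± 1.04 and 104 ± 6.6 TPM (0.16, adjusted p = 0.0465). The adjusted p of Selenok was 0.111, 0.104 and 0.0846 without normoxia replicate 1, 2 and 3, and 0.115 and 0.134 without hypoxia replicate 1 and 2.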

How the data were processed

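Poly(A) RNA of 6 GC-2spd libraries (3 normoxic, 3 hypoxia-treated) was analysed gene by gene. The authors used Cutadapt to filter paired reads, HISAT2 for alignment against mm10 and StringTie for the level of each gene, and versions and the annotation release are not given in the sources used here. The deposited values are coverage (mean read depth, a signal not scaled for library size), FPKM and TPM. The deposited TPM column lists annotated genes beside loci that StringTie assembled. In every library the former add up to 948283.6 to 981417.5 and the latter to 1000000, so the column as a whole is not an ordinary TPM table, and only annotated genes were used, as deposited. The share of TPM outside the annotation was 1.86% to 2.75% in normoxic and 2.3% to 5.17% in hypoxia-treated libraries.

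The authors screened genes with edgeR, a test for counts. The deposited values used here are not counts, so limma 3.58.1 in R 4.3.3 was run on log2(TPM + 1) of the 13749 genes with a mean of at least 1 TPM (empirical Bayes with a variance trend, 2-sided, Benjamini-Hochberg over all genes tested, threshold 0.05). A fold change on this scale understates the change of low genes. Depth is given as aligned bases, no counting interval was calculated, and the number of libraries limits the precision. The sources used here do not state separate cultures for the replicate libraries, and p-values measure only the spread between these libraries, which may be technical. GENCODE mouse release 21 gave a symbol for 42462 of 43432 gene IDs, and 20 symbols with several IDs were summed. The limma fit was tested on values simulated with the spread of each gene, and the outcome is not given here.

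Named in the text were all 10 genes, every gene of the list of NRF2 regulators, the partner genes of the ratios and, of each other list, up to 3 called genes per direction with the smallest adjusted p. Of the list of heme and iron handling, Hrg1 was not matched to a symbol. The members, lists and tests were chosen with earlier results of these data known, and counts over the lists are descriptions. Alternatives were other pseudocounts, filters and scalings, FPKM, no variance trend, assembled loci in place of annotated genes, the replicate number as a block, and leaving out each library in turn.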

Additional observations from a re-analysis of the deposited data

How the results depend on the processing

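Over all alternatives, 7 of the 10 genes were called lower, and 2 or 3 were called higher, the difference being Sod1. Of the other redox genes, 12 to 22 were called higher and 53 to 81 lower. The log2 differences of the within-library ratios without any single library were −0.48 to −0.38 for Gclm to Gclc, −1.54 to −1.32 for Slc7a11 to Slc3a2, −0.76 to −0.72 for Sod2 to Sod1, −1.33 to −1.21 for Gpx1 to Cat, 0.84 to 1.04 for Hmox1 to Hmox2 and −0.56 to −0.34 for Txnrd1 to Txnrd2. The labels do not state whether libraries with the same replicate number were paired. Deviations from the group means correlated with r of 0.026, 0.033 and 0.011 for same-numbered libraries. For libraries with different numbers r was −0.054 to 0.026. These values cannot decide whether the libraries were paired. With the number as a replicate block, 2281 genes were higher and 4674 lower, 15 of the other redox genes were higher and 71 lower, and Sod1 missed the threshold (adjusted p = 0.0811).

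Directions that turned were those of Sod1 (−0.08) with quantile normalization, of Cul3 (0.06 and 0.02) and Hmox2 (0.04 and 0.0) with median-ratio scaling and quantile normalization, of Dpp3 (0.01) with median-ratio scaling, and, with assembled loci in place of annotated genes, of Ccs (1.42), Mafg (−0.48), Nfe2l1 (2.29) and Selenot (0.12). The cause was not tested. Sod1 also missed the threshold with FPKM (0.05, adjusted p = 0.17), assembled loci (adjusted p = 0.0973), no filter (0.0748), no variance trend (0.13) and TPM rescaled to nuclear protein-coding genes (0.0955). Of 861 values of the 51 other named genes under the alternatives, 782 kept direction and side of the threshold, 57 lost the call, 13 gained it and 9 turned. Among the 10 genes, the log2 fold change of Slc7a11, which had the lowest coverage, moved over the widest range (−1.83 to −0.89).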
